A study of Mus musculus with 9 samples.

Results

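This account follows 33 lysosomal genes in macrophages grown from the bone marrow of wildtype C57BL/6 mice. They were taken from a list of 36 symbols by the gene symbol of each probe set, out of 19505 genes with a named probe set, and each had 1 probe set. Ctsd, Glb1 and Atp6v0c were not analysed here. The 33 genes comprise 9 proteases, 7 glycosidases, 5 lipid hydrolases or their cofactors, 8 membrane proteins, 2 parts of the proton pump, and Tfeb and Grn. All 33 lay above the limit of 5.66 (log2) below which probe sets were left out as dim.

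RNA was hybridised to 9 arrays, 3 in each of 3 groups. In every group, marrow cells grew for 7 days in 10% serum with macrophage colony-stimulating factor (given as 10 ng/ml in the growth protocol and as 20 ng/ml in the series text) and then received 20 ng/ml interleukin 4 for 24 h, a stimulus toward the anti-inflammatory or M2 state. The vehicle group received no lipocalin 2 (LCN2, a small secreted carrier of siderophores, the iron-binding molecules of bacteria). LCN2 was added on day 7 in the second group, at a dose that the labels do not state, and from day 0 at 150 ng/ml in the third. The labels do not tie arrays to separate mice or cultures, so each p-value covers only how far these samples differ from one another, which may be technical spread.

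Each title carries a number from 1 to 3, and the labels do not say what it marks. The arrays numbered 1 stood apart from the other 6 in every group, so each result is given by treatment and by number. The split of the arrays numbered 1 from the other 6 was thus chosen from the same data that it is tested on. Its p-values and counts describe that split and are not an independent test of it. Array medians ran from 5.60 to 5.69 on the log2 scale. Of the macrophage markers, 6 of 8 were found and all 6 lay above the limit, among them Adgre1 and Csf1r, while the 4 lymphocyte markers found (Cd79a, Cd3e, Cd3g and Ms4a1) were all dim. The arrays measured whole cultures, in which fewer cells of a type and less RNA per cell cannot be told apart.

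Lysosomes are acidic organelles in which hydrolases break down proteins, glycans and lipids delivered by endocytosis, phagocytosis and autophagy. The vacuolar proton pump acidifies them, a shell of glycosylated membrane proteins lines them, and transporters return the products to the cytosol. Macrophages are rich in lysosomes, and TFEB and its relatives TFE3 and MITF bind E-box motifs in the promoters of many lysosomal genes.

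Levels are log2 values, so that a difference of 1 is a doubling; levels of different probe sets are not compared. Among the proteases, the mean over the 9 arrays was 11.80 for Ctsa, 13.22 for Ctsb, 11.02 for Ctsc, 9.70 for Ctsh, 12.01 for Ctsl, 12.44 for Ctss, 12.05 for Ctsz, 11.98 for Lgmn and 12.28 for Tpp1. The glycosidases had means of 11.56 for Hexa, 11.06 for Gla, 10.12 for Gaa, 11.15 for Gusb, 10.55 for Man2b1, 9.16 for Naglu and 8.04 for Neu1. For lipid breakdown the means were 12.35 for Lipa, 10.68 for Asah1, 7.16 for Smpd1, 12.94 for Psap and 10.13 for Npc2. These genes therefore gave signal well clear of the limit in every group, and the lowest value of any of the 33 on any array was 6.77. The membrane proteins averaged 11.80 for Lamp1, 12.34 for Lamp2, 11.49 for Cd63, 9.67 for Mcoln1, 9.10 for Scarb2, 12.72 for Laptm5, 9.91 for Npc1 and 12.92 for Gpnmb. Atp6v1a, the catalytic subunit of the cytosolic part of the pump, averaged 10.83 and its accessory subunit Atp6ap1 10.40. The transcription factor gene Tfeb averaged 7.84, and Grn, which encodes progranulin, 12.55.

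**Figure D1:**
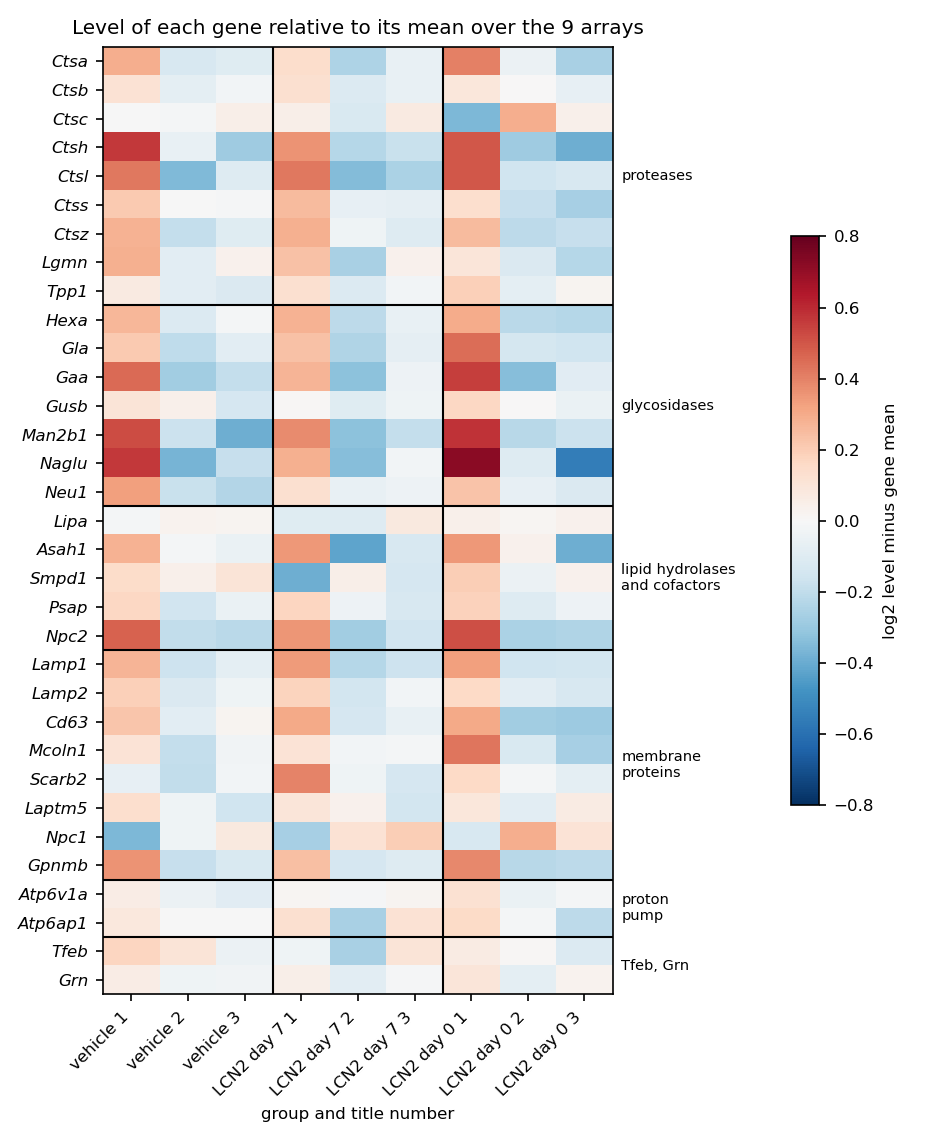
The 33 genes are in rows, by class, and the 9 arrays in columns, by group and title number. Colour gives the log2 level on an array minus the gene's mean over all arrays, which for Naglu had an SD of 0.44 and for Lipa of 0.06; the first column of each group is mostly red, and Npc1 is blue there.

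The first comparison asks what LCN2 changed when it was added on day 7 to cells that were already macrophages. None of the 33 genes passed in limma's moderated test at an adjusted p of 0.05, with 0 at an unadjusted p under 0.05, and over all 10042 genes tested 0 passed (0% called, 70 genes at an unadjusted p under 0.05). The differences from vehicle ran from -0.26 to 0.17, with a median of -0.03 and 23 of 33 genes below 0, while the median of all genes tested was 0.0025. That member median has no settled sign: leaving out 1 array gave -0.13 to 0.08, with values above 0 without vehicle array 1 (0.08) and without LCN2 day 7 array 2 (0.06) or 3 (0.02). Here and in the treatment comparisons below, these fits used group means only. Leaving out an array of a compared group thus also changed its balance of title numbers, and the members lay a median of 0.31 higher on number 1. By class the medians were -0.03 for proteases, -0.03 for glycosidases, -0.05 for lipid hydrolases and cofactors, 0.0010 for membrane proteins and 0.0016 for pump genes. In no member did the groups fail to overlap, where 3.17% of all genes tested were separated (1.49% higher and 1.67% lower).

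Smpd1, the acid sphingomyelinase that splits sphingomyelin into ceramide, had the smallest p. It stood at 7.30, 7.20 and 7.26 on the vehicle arrays numbered 1, 2 and 3 and at 6.77, 7.21 and 7.03 on the arrays of LCN2 from day 7 in the same order. The array numbered 1 of the LCN2 group was the low one, and array 2 was level with vehicle. The difference was -0.26 ± 0.13 (SE, n = 3 per group; limma, adjusted p = 1). Scarb2, the membrane receptor that carries glucocerebrosidase to lysosomes, read 9.04, 8.91 and 9.08 with vehicle and 9.50, 9.07 and 8.97 with LCN2, a difference of 0.17 ± 0.15 (adjusted p = 1) set mostly by the LCN2 array numbered 1. Tfeb, the regulator of lysosomal genes, read 8.01, 7.94 and 7.79 with vehicle and 7.80, 7.58 and 7.94 with LCN2, a difference of -0.14 ± 0.13 (adjusted p = 1). Its 3 same-number differences did not share a sign, as in 31 of the 33 genes. A shared sign occurred in 2 members and in 21.7% of all genes tested. Such differences take arrays of the same number as pairs, which the labels do not state.

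Exposure during the whole of differentiation was examined by setting the day 0 group against vehicle, the same 3 vehicle arrays as before. Again none of the 33 genes passed (0 at an unadjusted p under 0.05; 0% of 10042 genes called, with 142 at an unadjusted p under 0.05). The differences ran from -0.17 to 0.20, with a median of 0.01 and 18 of 33 genes above 0, beside a median of -0.01 (log2) for all genes tested. Leaving out 1 array gave a member median of -0.13 to 0.09, below 0 without vehicle array 2 (-0.06) or 3 (-0.05) and without LCN2 day 0 array 1 (-0.13), and quantile normalization gave -0.0048. Medians were -0.01 for proteases, 0.04 for glycosidases, -0.01 for lipid hydrolases and cofactors, 0.02 for membrane proteins and -0.0034 for the pump. The groups overlapped for every member, where 5.49% of all genes were separated (2.05% higher and 3.44% lower), and the same-number differences shared a sign in 8 members, where 27.2% of all genes did.

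Ctss, the cathepsin that trims the invariant chain from MHC class II molecules, stood at 12.65, 12.44 and 12.43 on the vehicle arrays and at 12.58, 12.26 and 12.18 with LCN2 from day 0. Each LCN2 array lay below the vehicle array of its number, by -0.07, -0.18 and -0.26, although the groups overlapped. The difference was -0.17 ± 0.15 (limma, adjusted p = 0.999), and ± 0.09 with the number as a block (adjusted p = 0.97). Lgmn, the asparaginyl endopeptidase that also processes cathepsins, read 12.26, 11.89 and 12.01 with vehicle and 12.07, 11.86 and 11.74 with LCN2. It too was lower at each number, with a difference of -0.16 ± 0.16 (adjusted p = 0.999). Npc1, the membrane transporter that exports cholesterol from lysosomes, read 9.55, 9.88 and 9.99 with vehicle and 9.78, 10.21 and 10.02 with LCN2. It was higher at each number, by 0.23, 0.33 and 0.03, with a difference of 0.20 ± 0.18 (adjusted p = 0.999) and ± 0.10 with the block (adjusted p = 0.97).

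The comparison of both LCN2 groups with each other tests the difference between the starting days, with the dose of the day 7 group not stated. Its values share the LCN2 arrays with the comparisons above and are not independent of them. None of the 33 genes passed (0 at an unadjusted p under 0.05; 0% of 10042 genes called, with 177 at an unadjusted p under 0.05). Differences of day 0 minus day 7 ran from -0.14 to 0.22, with a median of 0.02 (log2) and 21 of 33 genes above 0, beside a median of -0.02 for all genes. Leaving out 1 array gave -0.11 to 0.10, below 0 without LCN2 day 7 array 2 (-0.04) and without LCN2 day 0 array 1 (-0.11), and centring the arrays gave -0.01. By class the medians were -0.0070 for proteases, 0.07 for glycosidases, 0.07 for lipid hydrolases and cofactors, -0.01 for membrane proteins and -0.0049 for pump genes. All 5 lipid hydrolases and cofactors and 6 of 7 glycosidases lay above 0, with none past the threshold. The same-number differences shared a sign in 0 of these 5 lipid genes and in 1 of the 7 glycosidases. No member was separated, where 5% of all genes were (2.07% higher and 2.93% lower), and the same-number differences shared a sign in 7 members, where 20.9% of all genes did. Smpd1 differed by 0.22 ± 0.13 (limma, adjusted p = 1), with readings of 7.36, 7.11 and 7.19 on the arrays of LCN2 from day 0. Ctss differed by -0.14 ± 0.15 (adjusted p = 1) and was lower at each number. Lipa, which hydrolyses cholesteryl esters and triglycerides, read 12.25, 12.25 and 12.43 with LCN2 from day 7 and 12.39, 12.36 and 12.38 from day 0, a difference of 0.07 ± 0.10 (adjusted p = 1).

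A p above the threshold does not show that the groups were alike, so the intervals bound what these arrays allow. With the title number as a block, the SE of a member's difference had a median of 0.10 against 0.17 without it. The blocked 95% intervals of the 33 genes reached from -0.56 to 0.44 for LCN2 from day 7 against vehicle, from -0.39 to 0.42 (log2) for LCN2 from day 0 against vehicle and from -0.36 to 0.52 between the LCN2 groups. A change of 2-fold in either direction lay outside the blocked interval of every member in these 3 comparisons. The block called 0 members, as did the fit on the arrays numbered 2 and 3 alone. Over all 10042 genes tested, those at an unadjusted p under 0.05 numbered 259, 497 and 539 with the block (limma, in the same order). Without the block they numbered 70, 142 and 177, as the spread between title numbers then counts as error. Those lower counts are therefore not evidence that the groups were alike.

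**Figure D2:**
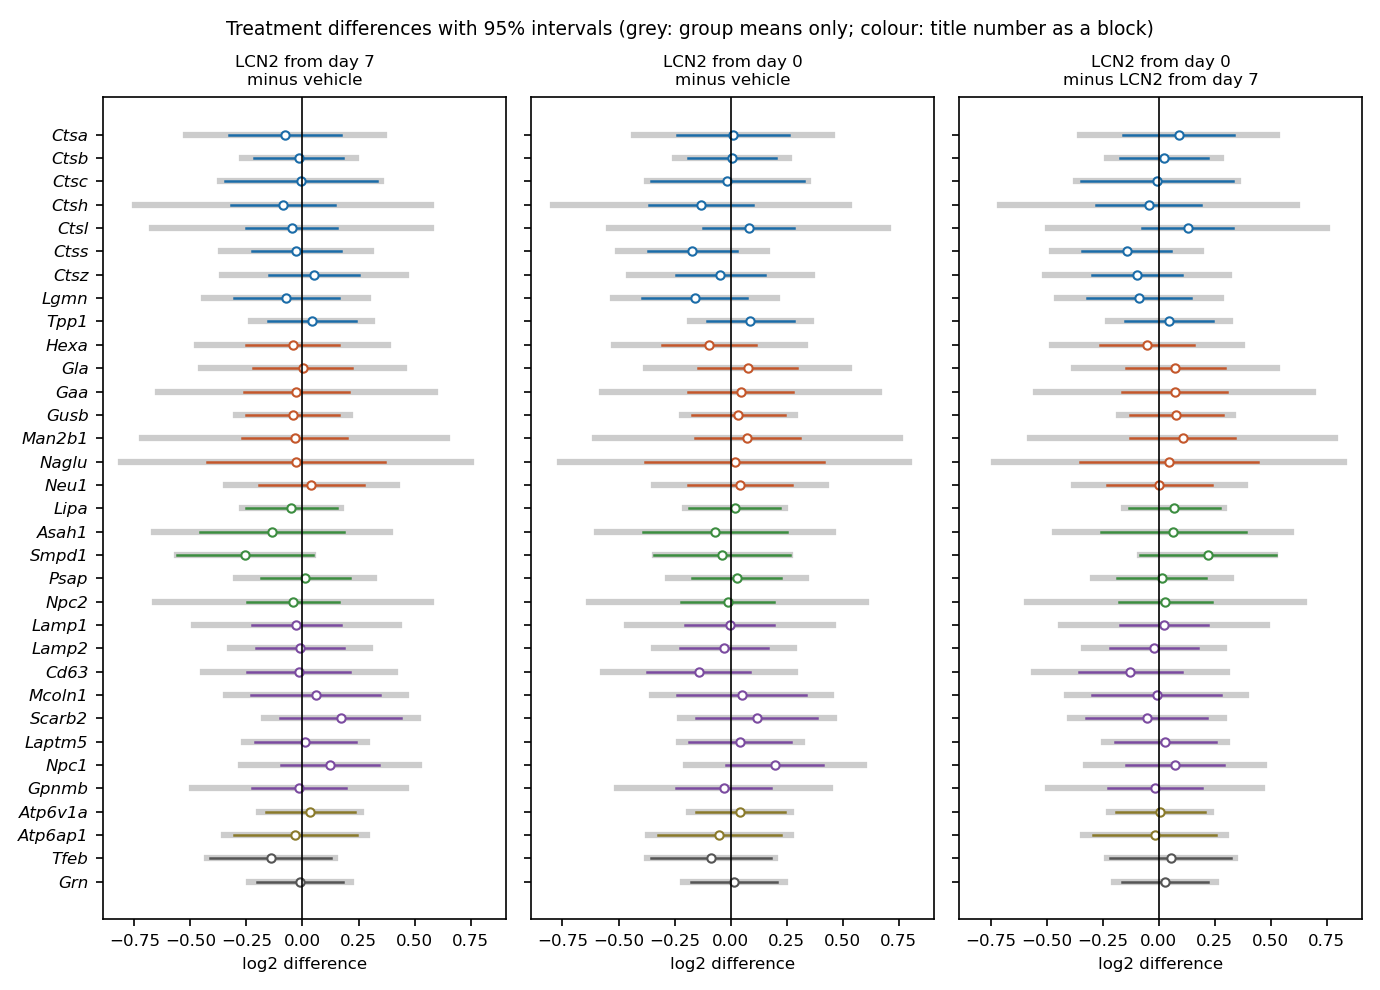
Each panel gives 1 treatment comparison, with the log2 difference of the 33 genes on the horizontal axis as open points. Grey bars are 95% intervals from group means only, and coloured bars those with the title number as a block; every bar crosses 0, and the coloured bars are shorter for genes such as Ctsl and Man2b1.

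The levels of most of these genes differed with the title number, by a split that was chosen from these same arrays. With the treatment group in the model, 19 of the 33 genes were higher on the arrays numbered 1 than on those numbered 2 and 3 and 1 was lower (limma, adjusted p under 0.05), where 11.0% of the 10042 genes tested were higher and 22.1% lower. The differences ran from -0.38 to 0.79, with a median of 0.31 and 29 of 33 above 0, beside a median of -0.06 for all genes tested. The 3 arrays numbered 1 all lay above the other 6 for 24 members and below them for 1, where 11.8% and 23.6% of all genes did (35.4% in either direction). Among genes with a mean level of at least 10, 16 of 25 members were higher, where 13.9% of all such genes were and 25.9% were lower.

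The member median was 0.27 within vehicle, 0.30 within LCN2 from day 7 and 0.32 within LCN2 from day 0, and 30 members kept their sign in all 3 groups, as did 63.7% of all genes. The count of 20 members fell to 13 without vehicle array 1 and to 12 without LCN2 day 0 array 1, and that of all genes from 3333 to 1777 and 1923. Quantile normalization of the deposited values moved the share of higher calls among all genes from 33.3% to 46.1%, and left 20 members higher and 1 lower. In all 17 fits of this comparison 11 members passed, namely Ctsh, Ctsl, Ctsz, Gaa, Gla, Gpnmb, Hexa, Lamp1, Man2b1, Naglu and Npc2.

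Of the 9 proteases, 6 were higher on the arrays numbered 1 and none lower. Ctsl, a cysteine endopeptidase that degrades proteins in the lysosome, stood at 12.43, 11.66 and 11.91 with vehicle, at 12.43, 11.66 and 11.75 with LCN2 from day 7 and at 12.50, 11.85 and 11.88 from day 0. The arrays numbered 1 were the 3 highest by a wide margin, and the difference was 0.67 ± 0.08 (SE, limma, adjusted p = 0.000679). Ctsh, an aminopeptidase and the protease with the largest spread, read 10.27, 9.64 and 9.42 with vehicle, 10.06, 9.48 and 9.53 with LCN2 from day 7 and 10.20, 9.42 and 9.31 from day 0. No array numbered 2 or 3 reached an array numbered 1, and the difference was 0.71 ± 0.09 (adjusted p = 0.000894). Ctsa, a carboxypeptidase that also stabilises neuraminidase, differed by 0.42 (adjusted p = 0.0109), Ctsz, another carboxypeptidase, by 0.41 (0.00487), Lgmn by 0.31 (0.0286) and Ctss by 0.30 (0.0173).

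The other proteases did not pass. Tpp1, a tripeptidyl peptidase, differed by 0.20 (adjusted p = 0.0725) and Ctsb, a cysteine protease, by 0.17 (0.117), and for both the arrays numbered 1 lay above all others. Ctsc, the dipeptidyl peptidase that activates granule serine proteases, read 11.01, 11.00 and 11.06 with vehicle, 11.06, 10.90 and 11.09 with LCN2 from day 7 and 10.66, 11.31 and 11.06 from day 0. Its difference of -0.16 ± 0.13 (adjusted p = 0.377) came from LCN2 day 0 array 1, without which it was 0.026.

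Glycosidases had the largest median of any class, 0.45, with 6 of 7 higher and none lower. Man2b1, the alpha-mannosidase of glycoprotein breakdown, stood at 11.07, 10.38 and 10.15 with vehicle, at 10.92, 10.22 and 10.35 with LCN2 from day 7 and at 11.12, 10.32 and 10.37 from day 0. The groups of arrays were far apart, with a difference of 0.74 ± 0.09 (adjusted p = 0.000773). Naglu, which removes N-acetylglucosamine from heparan sulfate, had the largest spread of the 33 genes, at 9.73, 8.79 and 8.98 with vehicle, 9.45, 8.83 and 9.14 with LCN2 from day 7 and 9.89, 9.06 and 8.61 from day 0. Its difference was 0.79 ± 0.15 (adjusted p = 0.00553). Gaa, which digests glycogen, differed by 0.64 (adjusted p = 0.00145), Gla, which acts on globotriaosylceramide, by 0.45 (0.00501), Hexa, a subunit of the hexosaminidase that degrades GM2 ganglioside, by 0.42 (0.0053) and Neu1, the sialidase, by 0.34 (0.0188). Gusb, the glucuronidase, was the member that did not pass, at 0.14 (adjusted p = 0.204).

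The lipid genes divided. Npc2, the soluble protein that hands cholesterol to Npc1, stood at 10.60, 9.93 and 9.92 with vehicle, at 10.49, 9.86 and 9.98 with LCN2 from day 7 and at 10.65, 9.88 and 9.89 from day 0. The arrays numbered 2 and 3 lay between 9.86 and 9.98, and the arrays numbered 1 were higher by 0.67 ± 0.08 (adjusted p = 0.000721). Asah1, the acid ceramidase, was higher by 0.49 (adjusted p = 0.0173) and Psap, the precursor of the saposins that present lipids to hydrolases, by 0.26 (0.0307). Lipa and Smpd1 did not pass, at -0.03 ± 0.08 (adjusted p = 0.759) and -0.02 ± 0.11 (adjusted p = 0.9). Lipa read 12.33, 12.37 and 12.37 with vehicle and had the smallest SD over the 9 arrays of any of the 33 genes, 0.06.

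Among the 8 membrane proteins, 4 were higher and 1 was lower. Gpnmb, a glycoprotein of macrophage lysosomes and the membrane gene with the largest spread, stood at 13.28, 12.74 and 12.80 with vehicle, at 13.16, 12.79 and 12.82 with LCN2 from day 7 and at 13.31, 12.70 and 12.72 from day 0, and was higher by 0.49 ± 0.08 (adjusted p = 0.00277). The heavily glycosylated coat proteins Lamp1 and Lamp2 were higher by 0.47 (adjusted p = 0.00254) and 0.27 (0.0267), and the tetraspanin Cd63 by 0.41 (0.00823). Mcoln1, a cation channel that releases calcium from lysosomes, differed by 0.32 (adjusted p = 0.0509), Scarb2 by 0.24 (0.097) and Laptm5, a membrane protein of blood cells, by 0.16 (0.184), and these did not pass.

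Npc1 ran the other way. With LCN2 from day 7 it read 9.65, 10.03 and 10.11, and with the values given above for vehicle and day 0 each array numbered 1 lay below the 6 others. The difference was -0.38 ± 0.08 (adjusted p = 0.00968), and -0.38 without vehicle array 1, where it no longer passed (adjusted p = 0.0574, the highest of its 17 fits). Npc1 and Npc2, which act in sequence on cholesterol, thus lay on opposite sides of 0 in each of the 3 treatment groups.

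Neither pump gene passed. Atp6ap1 read 10.49, 10.40 and 10.40 with vehicle, 10.53, 10.14 and 10.52 with LCN2 from day 7 and 10.56, 10.39 and 10.19 from day 0, with a difference of 0.18 ± 0.10 (adjusted p = 0.206), and Atp6v1a differed by 0.10 ± 0.08 (0.351). Tfeb read 7.90, 7.85 and 7.73 with LCN2 from day 0 and differed by 0.10 ± 0.10 (adjusted p = 0.477). Grn, whose product supports lysosomal function, differed by 0.10 ± 0.07 (0.311).

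**Figure D3:**
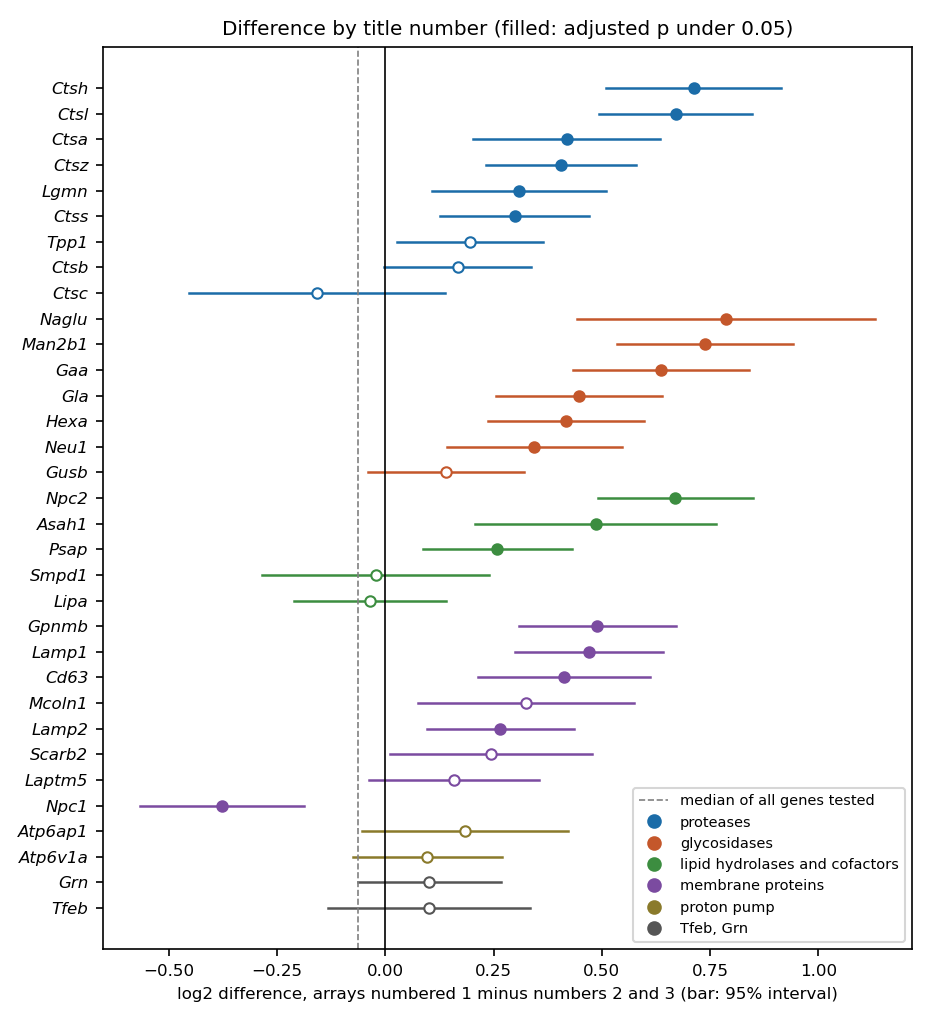
Points give the log2 difference of each gene between the arrays numbered 1 and those numbered 2 and 3, bars the 95% interval, and filled points an adjusted p under 0.05. Of the 33 genes 19 are filled to the right of 0 and Npc1 alone is filled to the left, while the dashed line marks the median of all genes tested at -0.06.

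**Figure D4:**
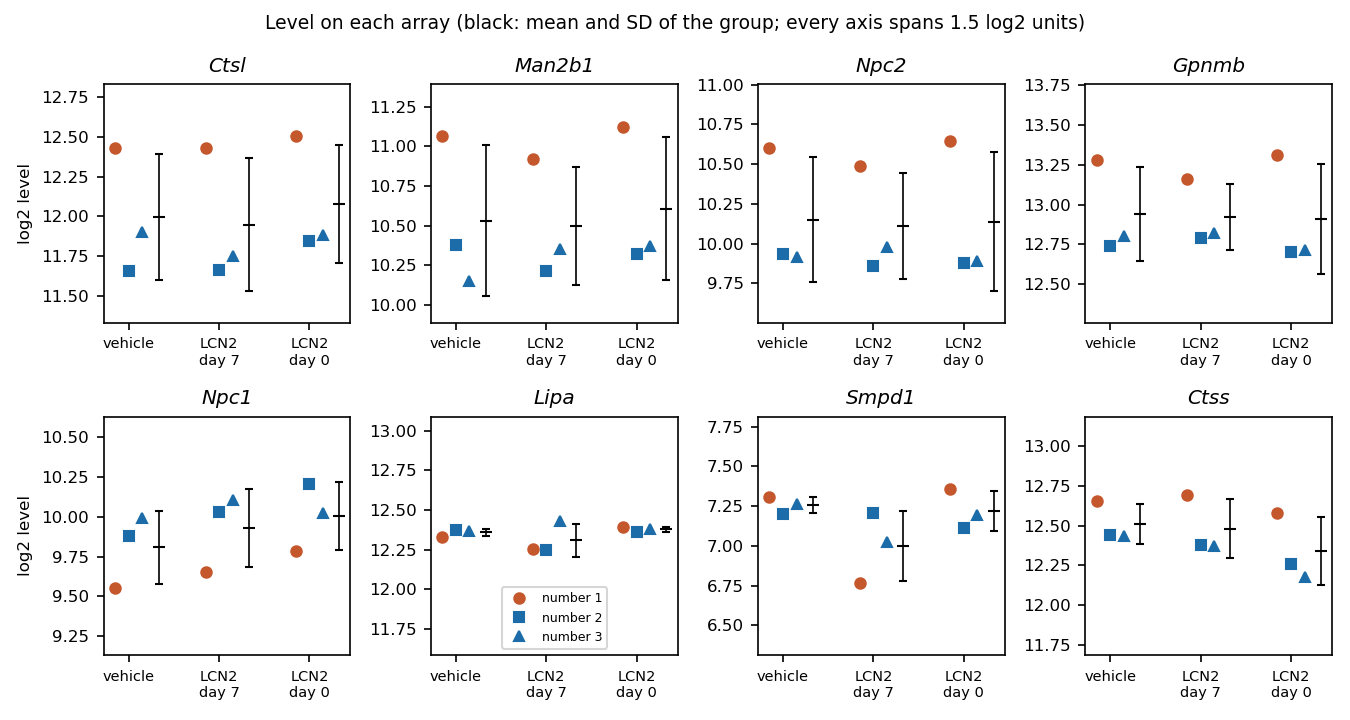
Log2 levels of 8 genes on the 9 arrays, by treatment on the horizontal axis, with number 1 in orange, numbers 2 and 3 in blue, and the group mean and SD in black. For Ctsl, Man2b1, Npc2, Gpnmb and Ctss the orange points are above all blue ones, for Npc1 below them, and for Lipa and Smpd1 they overlap.

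The promoters are shown because TFEB and its relatives bind motifs built around CACGTG in many lysosomal genes. The list was made of lysosomal genes, so its share of matches does not bear on the difference by title number. RefSeq windows of the 250 bases before a transcription start (GRCm38.p6) were at hand for 29 of the 33 genes; Asah1, Ctsb, Ctsh and Npc1 had no entry. The search took TCACGTG on both strands, and overlapping matches on the strands were counted as 1 site; the motif was chosen with the results known. At least 1 match was present in 8 of the 29 genes (27.6%), beside 5.94% of 8236 tested genes with a window. The shorter CACGTG, which every match contains, was in 9 of the 29 (31.0%) and in 10.2% of tested genes. The longer form with G before TCACGTG and AC after it was in none of the 29 and in 0.644% of tested genes. Lamp1 had 4 separate sites, and Gla and Mcoln1 had 2 each, in the stretches below, which end before the start site and show the matched bases in capitals.
Lamp1: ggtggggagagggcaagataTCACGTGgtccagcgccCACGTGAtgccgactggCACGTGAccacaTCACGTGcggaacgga
Gla: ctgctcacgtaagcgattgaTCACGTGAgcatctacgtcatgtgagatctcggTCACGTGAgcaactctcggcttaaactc
Mcoln1: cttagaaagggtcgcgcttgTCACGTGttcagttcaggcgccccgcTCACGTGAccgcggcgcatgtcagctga
Gaa: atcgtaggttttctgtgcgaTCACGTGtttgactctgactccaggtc
Naglu: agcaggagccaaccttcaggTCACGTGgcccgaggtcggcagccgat

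These stretches lie at chr8:13159079-13159160 (plus strand) for Lamp1, chrX:134601173-134601253 (minus) for Gla, chr8:3500427-3500500 (plus) for Mcoln1, chr11:119267802-119267848 (plus) for Gaa and chr11:101070000-101070046 (plus) for Naglu. The other genes with a match, each with 1 site and not shown, were Atp6v1a, Ctsa and Lgmn. They differed by title number by 0.10 (not called), 0.42 and 0.31. Gaa and Naglu, shown above and also with 1 site, differed more, by 0.64 and 0.79. By title number, the 8 genes with a match differed by 0.10 to 0.79, with a median of 0.43 and 6 called higher. The 21 genes with a window and no match differed by -0.16 to 0.74, with a median of 0.26 and 11 called higher, among them Ctsl, Man2b1 and Npc2. The ranges overlapped, no test was made between them, and a match is a run of letters, not a measured site.

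Other lysosomal genes were read from a second list of 78 symbols, of which 69 were found and 66 tested. That list also holds genes tied to lysosomes only indirectly, namely sorting and transcription factors and cathepsin inhibitors. By title number 29 were higher and 4 lower, with a median of 0.24, beside the 11.0% higher and 22.1% lower of all genes. Acp5, the tartrate-resistant acid phosphatase, differed by 2.17 ± 0.14 (limma, adjusted p = 6.3e-05), the collagen-degrading cathepsin Ctsk by 1.97 ± 0.15 (0.000122) and Pld3, a lysosomal nuclease, by 1.21 ± 0.09 (0.000122). All 7 tested lipid hydrolases, cofactors and phosphatases other than Ppt1 were higher. Those that fell were Cst7, a cathepsin inhibitor (-0.86 ± 0.18, adjusted p = 0.00788), Hgsnat, an acetyltransferase of heparan sulfate breakdown (-0.84 ± 0.11, 0.00128), Ppt1, a thioesterase (-0.36 ± 0.09, 0.0146), and Ctns, the cystine exporter (-0.39 ± 0.11, 0.0283), which is named after its value was seen.

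Of 14 other subunits of the proton pump, 5 were higher and none lower, with a median of 0.18. Among 8 sorting and transcription factor genes 2 were higher: the sorting receptor gene Sort1 at 0.89 (adjusted p = 0.000703) and Tfe3, a relative of Tfeb, at 0.35 (0.0108), while Mitf differed by -0.02 (0.913); these 3 are also named after their values were seen. In the 3 treatment comparisons 0 of the 66 passed, with or without the title number as a block. Without the block the smallest p values were those of Cst7 (0.58 ± 0.39) and Mfsd8 (-0.22 ± 0.15) for LCN2 from day 7, of Cpq (-0.24 ± 0.15) and Atp6v1b2 (-0.15 ± 0.10) for LCN2 from day 0, and of Atp6v1c1 (0.15 ± 0.10) and Arsb (0.16 ± 0.11) between the LCN2 groups. With the block other genes led, named here after their values were seen. Acp5 with LCN2 from day 0 lay below vehicle at each number, by -0.53, -0.88 and -0.88, a difference of -0.77 ± 0.16 (limma, adjusted p = 0.678 with the block and 0.999 without). Sort1 lay above vehicle at each number, by 0.20, 0.80 and 0.50, a difference of 0.50 ± 0.12 (adjusted p = 0.84 with the block). For LCN2 from day 7 the smallest p was that of Acp2, a lysosomal acid phosphatase, at -0.33 ± 0.11 (adjusted p = 0.999 with the block). Against LCN2 from day 7, the day 0 group differed by -0.73 ± 0.16 for Acp5 (adjusted p = 0.824 with the block) and by 0.34 ± 0.12 for Sort1 (0.898).

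**Figure D5:**
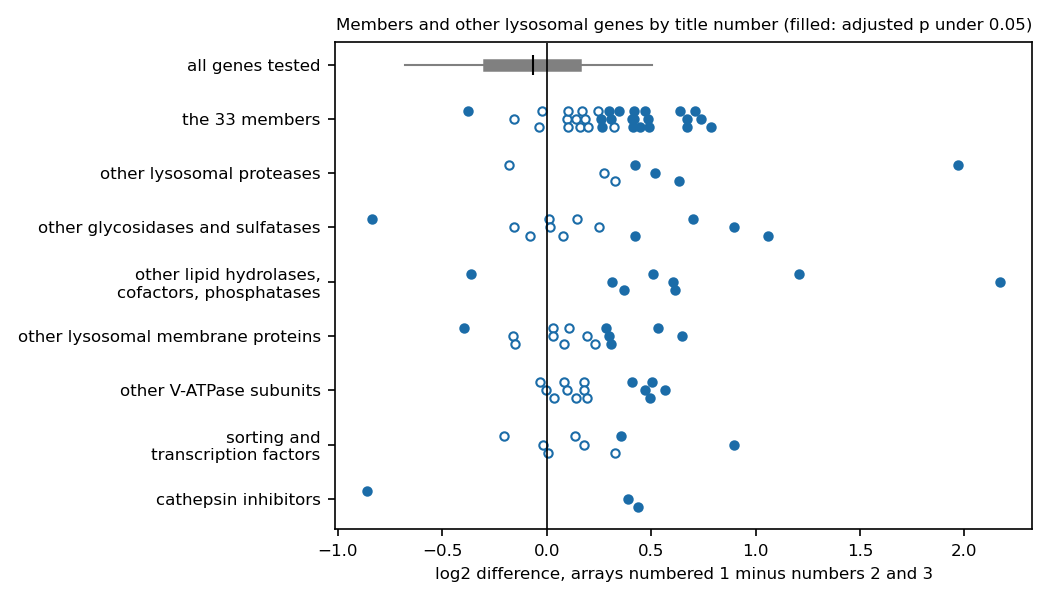
Points give the log2 difference of single genes between the arrays numbered 1 and those numbered 2 and 3, by list below the 33 genes, filled where the adjusted p was under 0.05. The top row shows all genes tested, with a thick bar from -0.28 to 0.14 (quartiles), a thin line from -0.68 to 0.51 (5th to 95th percentile) and a tick at the median of -0.06, and most lysosomal points lie to the right of 0, with Acp5 at 2.17 farthest.

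Markers of other cell types moved with the title number too. The summed linear level of the 4 monocyte markers found of 5 was 251 to 375 on the arrays numbered 1 and 799 to 950 on the others, with 3 of 4 lower. The 9 neutrophil granule markers summed to 657 to 1345 against 2422 to 3424, with 6 of 7 tested lower (Ctsg and Camp were dim), and the 9 cell cycle genes found of 10 to 2581 to 4114 against 5369 to 6917, with 8 lower. Osteoclast and giant cell markers, which include the lysosomal genes Acp5, Ctsk and Atp6v0d2, summed to 9642 to 11450 against 5904 to 8114. Most of that sum was Atp6v0d2, with a mean of 12.81 against 12.40, while its difference by number also came from Acp5, with 10.74 against 8.57. Of 6 tested, 4 were higher (Acp5, Ctsk, Atp6v0d2 and Mmp9) and 1 lower (Ocstamp, -1.05, limma, adjusted p = 0.00137). Dcstamp, at 0.26 (adjusted p = 0.19), was not called, and Calcr was dim. Monocyte, neutrophil granule and cell cycle markers were thus lower on the arrays where most lysosomal genes were higher.

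The 5 dendritic cell markers summed to 2895 to 3338 against 1634 to 2463, and most of that sum was Itgax, with a mean of 11.51 against 10.81. Ccr7 and Itgax were higher, and Flt3, Zbtb46 and Cd209a were dim on these arrays. The 6 macrophage markers summed to 11846 to 12637 against 11170.5 to 12287, with 2 higher and 1 lower. Cd14 (1.30, limma, adjusted p = 8e-05) and Mertk (0.77, 0.00455) were higher and Fcgr1 (-0.98, 0.000126) was lower. Itgam differed by 0.13, Adgre1 by -0.06 and Csf1r by -0.00056, and these did not pass. The 4 interleukin 4 response genes summed to 17776.5 to 19201 against 11837 to 15847.5, but did not move together. Chil3 (1.51) and Retnla (0.70) were the 2 higher, Arg1 (-0.64, limma, adjusted p = 0.00717) the 1 lower, and Mrc1 differed by 0.0064. Mast cell and basophil markers summed to 167 to 311 against 165 to 246, with 0 of 2 tested called, and stromal markers to 179 to 219 against 164 to 219, with the 1 tested not called. The lymphocyte markers, all dim and so not tested, summed to 77.6 to 85.7 against 59.3 to 72.5, which do not overlap. No erythroid marker was found. The part of these cell types in the lysosomal differences was not tested. Between treatments the monocyte sums overlapped, at 251 to 826 with vehicle, 375 to 946 with LCN2 from day 7 and 315 to 950 from day 0.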

How the data were processed

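Expression was read from 1 deposited table of 22203 probe sets on 9 arrays, as log2 values that the authors deposited; the submitters' processing notes name oligo and RMA, with no versions. RMA corrects background, equalises the probe distributions of arrays and summarises probes. The values were used as deposited, and the number of arrays limits their precision. Probe sets were named through the platform annotation: 19572 carried 1 gene symbol, 0 several and 2631 none, and all 19572 matched RefSeq (GRCm38.p6) by Entrez identifier with 0 symbols changed. The probe set with the highest mean was kept for each gene. Probe sets below the median of all means (5.66) were left out, which left 10042 genes.

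The moderated test of limma (version 3.58.1, run under R 4.3.3) was used, and p-values were adjusted by Benjamini-Hochberg over all genes tested. Treatments used group means over all 9 arrays, and title numbers used group plus number. The fit was tested on simulated data with independent noise on each array and no effect of the title number. These arrays differ in that respect, so the test does not show how the fit handles that effect. The 9 correlations between same-number arrays, of deviations from group means, were 0.16 to 0.82. Different numbers reached 0.69, and 5 of 9 arrays correlated best with their own number. Arrays numbered 1 correlated with one another at 0.74 to 0.82. For numbers 2 and 3, same-number arrays gave 0.16 to 0.65 and number 2 with number 3 gave 0.20 to 0.69. Pairing was thus not shown for numbers 2 and 3. The block and the same-number differences assume it, and the main treatment fits do not. The alternatives were other variance models, filters, scalings, probe set rules, arrays and the block. Values on every array are given for the 3 members of smallest p in each treatment comparison, the 4 of smallest p in each direction by number, and the member of largest SD in each class. Of other lysosomal genes, those named are the 3 called of smallest p in each direction, or the 2 of smallest p where none was called. Members and lists were chosen with earlier results of these data known. Lists of marker genes covered macrophages, interleukin 4 response, monocytes, neutrophil granules, osteoclasts, dendritic cells, mast cells, lymphocytes, erythroid cells, stroma and cell cycle.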

Additional observations from a re-analysis of the deposited data

Results flagged for a closer look

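In 2 genes the array numbered 1 lay above both other arrays of its group in at least 1 treatment group and below both in another; the difference between groups was not tested. Smpd1 on the array numbered 1, against the mean of numbers 2 and 3, differed by 0.073 with vehicle, by -0.35 with LCN2 from day 7 and by 0.21 with LCN2 from day 0. Lipa differed by -0.040, -0.083 and 0.018 in the same order.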

How the results depend on the processing

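In the 3 treatment comparisons 0 of 33 members and 0 genes passed in the main fits and all 18 alternatives, and the differences of the 3 members of smallest p in each comparison kept their sign. The median difference of the members changed sign in all 3 when 1 array was left out, running from -0.13 to 0.08, from -0.13 to 0.09 and from -0.11 to 0.10. Those fits had no block for the title number, so leaving out an array of a compared group also changed its balance of numbers. Adding the replicate block to the fit on all arrays left the counts of members and genes that passed at 0, so the block changed no call. By title number, leaving out 1 array in turn gave 1777 to 3612 genes, 12 to 20 members and a member median of 0.27 to 0.34; these fits have fewer arrays. Centring each array on its median lowered the member median to 0.27. Smpd1, which did not pass, changed sign to 0.049 with quantile normalization and ran from -0.14 to 0.14 when 1 array was left out, above 0 without LCN2 day 7 replicate 1 or 2. Ctsc, which did not pass either, ran from -0.27 to 0.026, above 0 without LCN2 day 0 replicate 1; the cause was not tested. The fit on numbers 2 and 3 alone was chosen after seeing the data. With 3 arrays per group, the treatment differences of the 33 genes, whose intervals all cross 0, cannot be told from 0.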
